A study of Mus musculus with 6 samples.

Results

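The genes described here are 8 aldehyde dehydrogenases (Aldh1a1, Aldh1a2, Aldh1a3, Aldh1a7, Aldh2, Aldh3a1, Aldh3a2 and Aldh3b1), the aldehyde oxidase gene Aox1 and the microsomal epoxide hydrolase gene Ephx1. They were chosen by name, with earlier results of these data known, as enzymes that act on reactive carbonyls and epoxides. They make up 10 of the 43629 genes in the tables. All 10 passed the filter on low counts and were among the 15341 genes tested. RNA-seq was made from primary dermal fibroblasts of newborn mice, cultured for 6 days and taken at passage 1. The ctrl group (genotype Col1a2Cre-wt, n = 3) carried a Cre recombinase expressed in fibroblasts and nothing else. The caNrf2 group (genotype Col1a2Cre-caNrf2, n = 3) carried the same Cre and a constitutively active form of Nrf2. Mice of both groups were of a mixed background, 50% C57Bl/6 and 50% FVB/N. The design names 3 mice a group, the labels do not tie a library to a mouse, and each library was taken as 1 mouse.

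Aldehyde dehydrogenases oxidize aldehydes to carboxylic acids with NAD+ or NADP+ as the electron acceptor. Their substrates include acetaldehyde, the alkenals and fatty aldehydes left by lipid peroxidation, and retinaldehyde, whose oxidation gives retinoic acid, a hormone that acts through nuclear receptors in skin. Aldehyde oxidase carries out a related reaction with a molybdenum cofactor and molecular oxygen, and epoxide hydrolase opens epoxides with water to give diols. Nrf2 is a transcription factor that binds antioxidant response elements next to genes of this kind.

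Library totals ran from 30168250 to 45164071 expected counts, so that 1 read was worth 0.0221 to 0.0332 CPM (counts scaled to a common library total). Nfe2l2, which encodes Nrf2, was at 103 to 113 CPM in ctrl and 352 to 430 CPM in caNrf2 libraries. Whether these reads came from the native gene or from the added active form was not tested. The Nrf2 target Nqo1 was at 22.6 to 28.4 CPM in ctrl and 578 to 735 CPM in caNrf2. All 10 fibroblast markers were present, with a summed level of 37500 to 53680 CPM in ctrl and 27800 to 32890 CPM in caNrf2, and 2 of them were higher and 5 lower. The collagen genes of the list gave most of this sum and most of its fall. All 13 tested macrophage and leukocyte markers were higher in caNrf2, and the list rose from 22.2 to 62.9 CPM in ctrl to 158 to 191 CPM in caNrf2. Of the skeletal muscle markers, 10 of 12 tested were higher, at 156 to 178 CPM in ctrl and 225 to 304 CPM in caNrf2. Fewer markers moved in the keratinocyte list (2 of 11 higher, 180 to 297 against 244 to 414 CPM), the melanocyte and Schwann cell list (2 of 10, 38.2 to 47.4 against 45.9 to 51.8 CPM), the endothelial list (1 of 9, 29.3 to 38.7 against 35.8 to 42.6 CPM) and the adipocyte list (1 higher and 1 lower of 7, 103 to 129 against 104 to 172 CPM). The part of other cells in the results that follow was not tested, and in bulk RNA fewer cells of a type and less RNA per cell cannot be told apart.

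Of the 10 genes, 6 were called higher in caNrf2 fibroblasts and none lower. Aldh3a1 (14.0-fold), Aox1 (5.93-fold), Aldh3b1 (1.90-fold), Ephx1 (1.49-fold) and Aldh2 (1.46-fold) rose, by edgeR's quasi-likelihood test with a Benjamini-Hochberg adjusted p under 0.05, which is what "called" means here. Aldh1a2 was called as well (2.31-fold), but from few reads, and its call ended in 9 of 14 alternative fits. Aldh1a1, Aldh1a3, Aldh1a7 and Aldh3a2 were not called. Over all genes tested, 21.5% were called, 12.5% higher and 9.03% lower. The median log2 fold change of the 10 genes was 0.66, against -0.003 for all genes tested. Aldh1a2 and Aldh3a1 passed the filter on low counts through the caNrf2 libraries, where they were high. In ctrl, 1 and 2 of 3 libraries reached 0.248 CPM. The 10 genes were also chosen with earlier results of these data known, so the count and the median are a description only. The 6 genes that were called were also the 6 whose groups did not overlap in CPM, as was true of 42.1% of all genes tested. The macrophage and leukocyte markers (13 of 13 tested higher) and the skeletal muscle markers (10 of 12) moved in the same direction as these 6 genes.

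**Figure D1:**
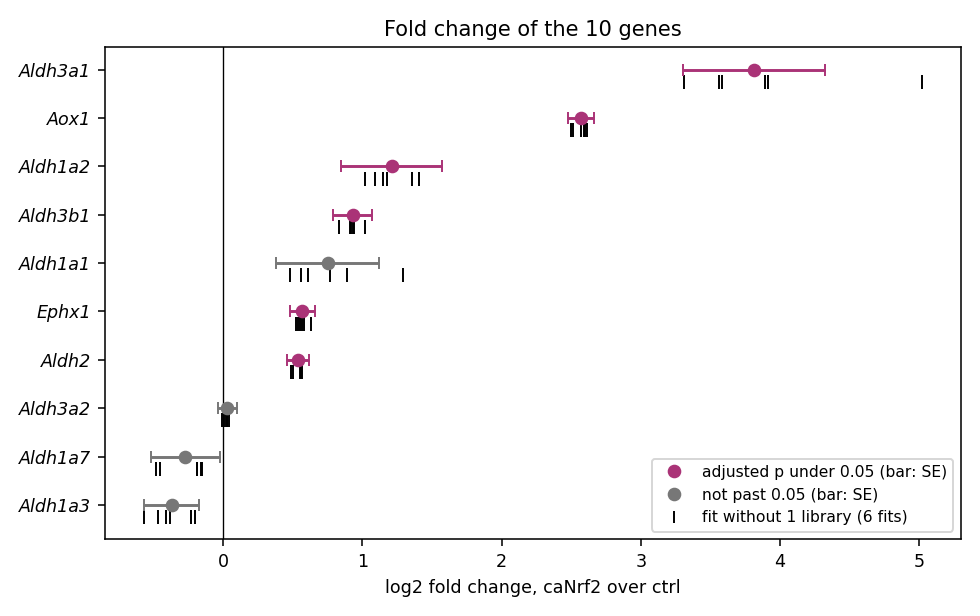
Log2 fold change (x axis) of caNrf2 over ctrl for each of the 10 genes (y axis). Points with bars are the estimate and its standard error (SE), coloured where the adjusted p was under 0.05, and black ticks are the fits that leave out 1 of the 6 libraries. The ticks of Aldh3a1 run from 3.31 to 5.02, while those of Aox1, Ephx1 and Aldh2 stay close to their points.

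Levels of different genes can be compared only per length, for which the deposited TPM values (transcript abundance scaled by length and to a common total) were used. In ctrl fibroblasts Ephx1 stood highest, at 302 ± 42.3 TPM (SD, n = 3), followed by Aldh2 at 117 ± 5.59 and Aldh3a2 at 41.0 ± 2.60 TPM. The other 7 genes lay far lower, from Aldh1a3 at 7.14 ± 1.42 TPM down to Aldh1a2 at 0.177 ± 0.04 TPM. The library ranges of Aldh3b1 and Aox1 overlapped in ctrl (3.97 ± 0.50 and 3.56 ± 0.27 TPM), as did those of Aldh3a1 and Aldh1a1 (0.74 ± 0.73 and 0.673 ± 0.36 TPM). In caNrf2 fibroblasts the top of the order was unchanged, with Ephx1 at 417 ± 12.4, Aldh2 at 163 ± 3.55 and Aldh3a2 at 38.9 ± 2.04 TPM. Below them, Aox1 now stood at 20.99 ± 2.09 TPM and Aldh3a1 at 9.72 ± 1.91 TPM, both above Aldh3b1 (7.27 ± 0.23) and Aldh1a3 (5.55 ± 1.45 TPM). Aldh1a7 (1.86 ± 0.28), Aldh1a1 (1.12 ± 0.27) and Aldh1a2 (0.397 ± 0.13 TPM) closed the order, in which no neighbouring ranges overlapped.

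**Figure D2:**
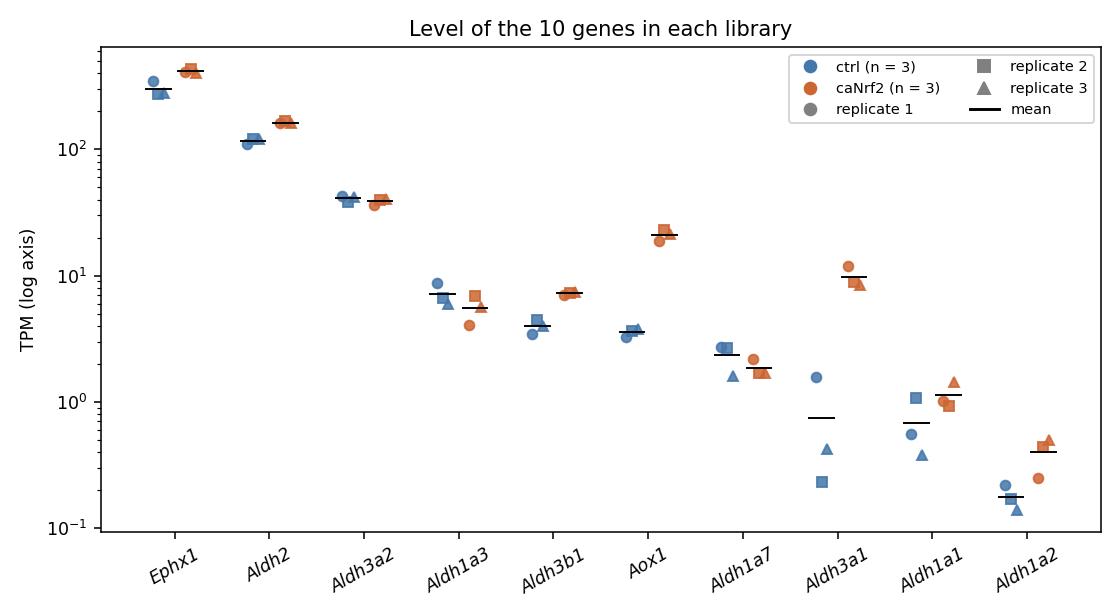
TPM on a log axis (y axis) of the 10 genes (x axis) in each library, ctrl in blue and caNrf2 in orange, with a bar at the mean of 3 libraries and a symbol for each replicate number. Aox1 and Aldh3a1 are the genes whose groups lie farthest apart, while the groups of Aldh1a1, Aldh1a3, Aldh1a7 and Aldh3a2 overlap in CPM.

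The retinaldehyde dehydrogenases Aldh1a1, Aldh1a2 and Aldh1a3 catalyse the last step of retinoic acid synthesis. The most abundant of them here was Aldh1a3 (ENSMUSG00000015134, chromosome 7, 66390892 to 66427517, minus strand, GRCm38). It was at 11.6, 9.10 and 8.16 CPM in ctrl libraries 1 to 3 and at 5.55, 9.29 and 7.48 CPM in caNrf2 libraries 1 to 3. The groups overlapped, and the log2 fold change of -0.37 (SE 0.20, 95% interval of the fold 0.564 to 1.06) was not called (adjusted p = 0.225). Its share of the summed TPM of these 3 genes was 84.3 to 92.0% in ctrl and 74.5 to 83.6% in caNrf2 libraries. The sum itself was 7.99 ± 1.5 TPM in ctrl and 7.07 ± 1.56 TPM in caNrf2 (n = 3 each), so that the groups differed by less than their SD.

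Aldh1a2, the main retinaldehyde dehydrogenase of the early embryo (ENSMUSG00000013584, chromosome 9, 71215789 to 71296243, plus strand), was the lowest of the 10 genes. Its expected counts were 9, 9 and 5 in ctrl and 12, 23 and 26 in caNrf2, or 0.254, 0.201 and 0.165 CPM against 0.325, 0.518 and 0.599 CPM. Every caNrf2 library was above every ctrl library, by a narrow margin between ctrl library 1 and caNrf2 library 1. Its log2 fold change was 1.21 (SE 0.36, 95% interval of the fold 1.31 to 4.09, adjusted p = 0.0441). The gene entered the test through the caNrf2 libraries, since 1 of 3 ctrl libraries reached the filter's 0.248 CPM. The call ended without ctrl replicate 1 (adjusted p = 0.0772), ctrl replicate 2 (0.122), ctrl replicate 3 (0.144), caNrf2 replicate 2 (0.124) or caNrf2 replicate 3 (0.147). It also ended with no filter (0.0709) and in DESeq2 (0.166) and limma-voom (0.0536).

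Aldh1a1, the cytosolic retinaldehyde dehydrogenase of adult tissues (ENSMUSG00000053279, chromosome 19, 20601961 to 20643462, plus strand), was at 0.592, 1.14 and 0.396 CPM in ctrl and 1.19, 0.969 and 1.52 CPM in caNrf2. Ctrl library 2 lay within the range of the caNrf2 libraries. For Aldh1a1 the log2 fold change was 0.75 (SE 0.37, 95% interval of the fold 0.934 to 3.02) and was not called (adjusted p = 0.189). Without ctrl replicate 2 it was called (log2 fold change 1.29, adjusted p = 0.0385). Aldh1a7, a rodent paralog of Aldh1a1 (ENSMUSG00000024747, chromosome 19, 20692953 to 20727562, minus strand), was at 2.90, 2.86 and 1.69 CPM in ctrl and 2.57, 1.83 and 1.84 CPM in caNrf2. These groups overlapped as well (log2 fold change -0.27, SE 0.25, 95% interval of the fold 0.557 to 1.24, adjusted p = 0.488).

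Aldh1a1 and Aldh1a7 stand 49.5 kb apart and are near copies. Their coding sequences on GRCm38 (GENCODE M21) are both 1503 bases long and are identical at 1377 positions (91.6%). Of the 1454 words of 50 bases in Aldh1a7, 151 (10.4%) also occur in Aldh1a1. The authors' software divides reads that fit both genes. In ctrl the expected counts were whole numbers, 21, 51 and 12 for Aldh1a1 and 103, 128 and 51 for Aldh1a7. In caNrf2 they were 43.95, 43.35 and 66.46 for Aldh1a1 and 95.05, 80.65 and 79.54 for Aldh1a7. These values show little division of reads, but at such low counts the separate values are uncertain. The stretch that differs most, coding bases 317 to 376 counted from the start codon, shows what separates their reads. Capitals mark its 16 differing bases, 5′ to 3′.
Aldh1a1: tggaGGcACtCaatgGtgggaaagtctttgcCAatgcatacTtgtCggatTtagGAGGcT
Aldh1a7: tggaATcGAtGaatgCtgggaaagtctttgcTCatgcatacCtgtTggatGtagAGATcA
With the counts of both genes added, the log2 fold change was 0.04 and was not called (adjusted p = 0.928). In every library Aldh1a7 gave more of these counts than Aldh1a1. Their summed level was 3.01 ± 0.93 TPM in ctrl and 2.99 ± 0.32 TPM in caNrf2 (n = 3 each).

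The start regions of Aldh1a1, Aldh1a7 and Aldh1a2 are shown because their letters can be set beside the binding motif of Nrf2 and because those of the paralogs share a block. The windows searched are the 250 bases upstream of RefSeq starts (GRCm38.p6), and were available for 7 of the 10 genes. Aldh1a3, Aldh2 and Aldh3a1 had no window. The core of the antioxidant response element was searched on both strands in 2 forms, TGACNNNGC and TGAGNNNGC, which cannot match at the same place on a strand. The 3 windows are printed without bases that lie in a deposited transcript of the gene. Capitals mark a match, 5′ to 3′ on the strand of the gene.
Aldh1a2, chr9:71215539-71215788, plus strand: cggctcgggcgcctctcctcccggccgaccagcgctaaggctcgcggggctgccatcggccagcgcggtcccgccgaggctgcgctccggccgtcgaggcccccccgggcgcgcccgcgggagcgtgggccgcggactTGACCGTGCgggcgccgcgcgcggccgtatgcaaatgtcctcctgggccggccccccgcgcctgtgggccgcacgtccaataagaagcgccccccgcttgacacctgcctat
Aldh1a1, chr19:20601718-20601960, plus strand: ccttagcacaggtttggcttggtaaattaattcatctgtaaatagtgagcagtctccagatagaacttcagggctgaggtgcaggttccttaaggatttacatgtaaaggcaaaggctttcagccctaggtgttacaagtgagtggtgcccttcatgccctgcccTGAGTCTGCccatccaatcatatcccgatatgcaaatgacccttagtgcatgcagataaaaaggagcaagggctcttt
Aldh1a7, chr19:20727563-20727806, minus strand: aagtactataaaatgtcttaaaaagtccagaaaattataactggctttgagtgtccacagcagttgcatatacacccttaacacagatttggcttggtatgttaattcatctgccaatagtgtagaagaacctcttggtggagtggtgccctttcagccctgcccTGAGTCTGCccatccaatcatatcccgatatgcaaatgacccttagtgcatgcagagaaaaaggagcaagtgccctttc
The match in Aldh1a2, TGACCGTGC, began 112 bases upstream of the start. Aldh1a1 and Aldh1a7 both held TGAGTCTGC, 85 bases upstream of the start. It lies in the longest run the windows of these paralogs share, 65 bases from 94 to 30 bases upstream in both, while 129 of 250 positions (51.6%) of the ungapped windows are identical. A further start listed for Aldh1a1 held no match, nor did the windows of Aldh3b1, Aox1 and Ephx1, while Aldh3a2 held TGAGTGCGC 9 bases upstream, in a window that 2 of its deposited transcripts partly cover. Of all 32851 windows, 10.2% held the first form, 14.4% the second and 23.0% either one. Counted in the same way, 4 of the 8 windows of these genes held a match, and those of Aldh1a1 and Aldh1a7 are the same letters in their shared run. Counted by gene, 4 of the 7 genes with a window held a match, 1 of them (Aldh1a2) a gene that was called. The called genes Aldh2 and Aldh3a1 could not be searched, so whether they hold a match was not tested.

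Aldh2 encodes the mitochondrial enzyme that clears acetaldehyde and lipid peroxidation aldehydes (ENSMUSG00000029455, chromosome 5, 121566027 to 121593824, minus strand). It was at 129, 138 and 138 CPM in ctrl and 210, 194 and 187 CPM in caNrf2. All caNrf2 libraries were well above all ctrl libraries, and the spread within a group was small. Aldh2 rose by 0.54 on the log2 scale (SE 0.08, 95% interval of the fold 1.29 to 1.66, adjusted p = 0.00181). Aldh2 made up 64.7 to 69.2% of the summed TPM of the 8 aldehyde dehydrogenases in ctrl libraries and 71.0 to 72.0% in caNrf2 libraries. Its reads were assigned mainly to ENSMUST00000129753, from 81.7 to 91.9 TPM in the ctrl group and from 122 to 130 TPM in the caNrf2 group.

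Aldh3a1 encodes a cytosolic enzyme of aromatic and medium-chain aldehydes, known as an abundant protein of the cornea (ENSMUSG00000019102, chromosome 11, 61207537 to 61218421, plus strand). It was at 1.38, 0.201 and 0.363 CPM in ctrl and 11.6, 7.80 and 7.48 CPM in caNrf2, from expected counts of 49, 9 and 11 against 427, 346 and 325. Ctrl library 1 was the highest of its group by far, and still well below every caNrf2 library. The log2 fold change was 3.81 (SE 0.51, 95% interval of the fold 6.26 to 31.2, adjusted p = 0.00105). Without ctrl replicate 1 the log2 fold change was 5.02, and it was at least 3.31 without any other single library.

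Aldh3a2, the fatty aldehyde dehydrogenase of the endoplasmic reticulum (ENSMUSG00000010025, chromosome 11, 61223417 to 61267464, minus strand), lies 5.0 kb from Aldh3a1 on the other strand. It was at 62.8, 57.9 and 62.7 CPM in ctrl and 62.6, 60.9 and 63.1 CPM in caNrf2. The groups overlapped almost fully. Its log2 fold change of 0.03 (SE 0.07) was not called (adjusted p = 0.818), with a 95% interval of the fold from 0.915 to 1.13. Its sign turned under upper-quartile scaling (-0.01) and without ctrl replicate 2 (-0.01).

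Aldh3b1 encodes a membrane-bound enzyme of medium- and long-chain aldehydes (ENSMUSG00000024885, chromosome 19, 3913493 to 3929761, minus strand). It was at 3.33, 4.26 and 3.83 CPM in ctrl and 7.47, 7.06 and 7.28 CPM in caNrf2. The caNrf2 libraries lay close together and above the whole ctrl group. This gave a log2 fold change of 0.93 (SE 0.14, 95% interval of the fold 1.54 to 2.36, adjusted p = 0.00168).

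Aox1 encodes an aldehyde oxidase that acts on many drugs and can oxidize retinaldehyde (ENSMUSG00000063558, chromosome 1, 58029931 to 58106413, plus strand). It was at 8.37, 9.44 and 9.58 CPM in ctrl and 50.8, 57.9 and 53.6 CPM in caNrf2. The lowest caNrf2 library was far above the highest ctrl library, with little spread in either group. Aox1 thus had a log2 fold change of 2.57 (SE 0.09, 95% interval of the fold 5.13 to 6.85) and an adjusted p of 3.23e-07, the smallest adjusted p of the 10 genes. Most of its TPM was assigned to the transcript of 35 exons, ENSMUST00000001027, with 2.61 to 3.04 TPM in ctrl libraries and 17.2 to 19.8 TPM in caNrf2 libraries.

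Ephx1, the microsomal epoxide hydrolase that opens epoxides of drugs and pollutants (ENSMUSG00000038776, chromosome 1, 180976210 to 181020904, minus strand), was at 265, 232 and 224 CPM in ctrl and 371, 353 and 346 CPM in caNrf2. Ctrl library 1 was the highest of its group and stayed below every caNrf2 library. Ephx1 rose by 0.57 on the log2 scale (SE 0.09, 95% interval of the fold 1.29 to 1.71, adjusted p = 0.00271). The share of reads among transcripts was tested for the 6 of the 10 genes with at least 2 tested transcripts, and none was called (edgeR diffSpliceDGE, every adjusted p at 1, unadjusted p 0.349 to 0.92). Over all genes with several tested transcripts, 0.801% were called. With posterior mean counts none was called either, with adjusted p from 0.877 to 1.

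The remaining mouse aldehyde dehydrogenases did not move as a block. Of the 13 listed, 11 were tested, with a median log2 fold change of -0.01. Of the 11, 3 were called higher and 2 lower (12.5% and 9.03% over all genes tested). Aldh1l2, which oxidizes formyl-tetrahydrofolate, was at 330, 368 and 466 CPM in ctrl and 137, 136 and 190 CPM in caNrf2. The groups did not overlap, and the gene fell to 0.398-fold (adjusted p = 0.000784). Aldh18a1, which starts proline synthesis from glutamate, fell to 0.697-fold (adjusted p = 0.0118), from 192, 239 and 236 CPM to 154, 140 and 171 CPM.

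The 3 genes called higher, Aldh5a1 (succinate semialdehyde, 1.29-fold, adjusted p = 0.0352), Aldh6a1 (methylmalonate semialdehyde, 1.28-fold, 0.0369) and Aldh7a1 (lysine breakdown, 1.18-fold, 0.0341), rose modestly. None of the 3 was called with upper-quartile factors (adjusted p 0.0572 to 0.0659). Aldh5a1 and Aldh7a1 lost the call without any 1 of the 6 libraries (adjusted p 0.0585 to 0.0975 and 0.0531 to 0.11). Aldh6a1 lost it without ctrl replicate 2 (0.111), ctrl replicate 3 (0.0947), caNrf2 replicate 1 (0.0949) or caNrf2 replicate 3 (0.102). Counted over the list, 1 gene was called higher without ctrl replicate 1 or caNrf2 replicate 2 and 0 without any other single library. Calls also became fewer over all genes tested, at 14.1 to 18.4% with a library left out against 21.5% with all 6.

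Summed over the 8 aldehyde dehydrogenases chosen here, the level was 173 ± 1.93 TPM in ctrl and 228 ± 4.45 TPM in caNrf2, a ratio of 1.32. Summed over all 21 aldehyde dehydrogenases it was 620 ± 47.1 TPM in ctrl and 559 ± 19.8 TPM in caNrf2, a ratio of 0.902, and the groups overlapped (574 to 668 against 547 to 582 TPM). Aldh1l2 and Aldh18a1 together accounted for 265 ± 37.6 TPM in ctrl and 137 ± 20.9 TPM in caNrf2 (n = 3 each). The ctrl libraries were all above the caNrf2 libraries in this last sum and below them in the first.

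**Figure D3:**
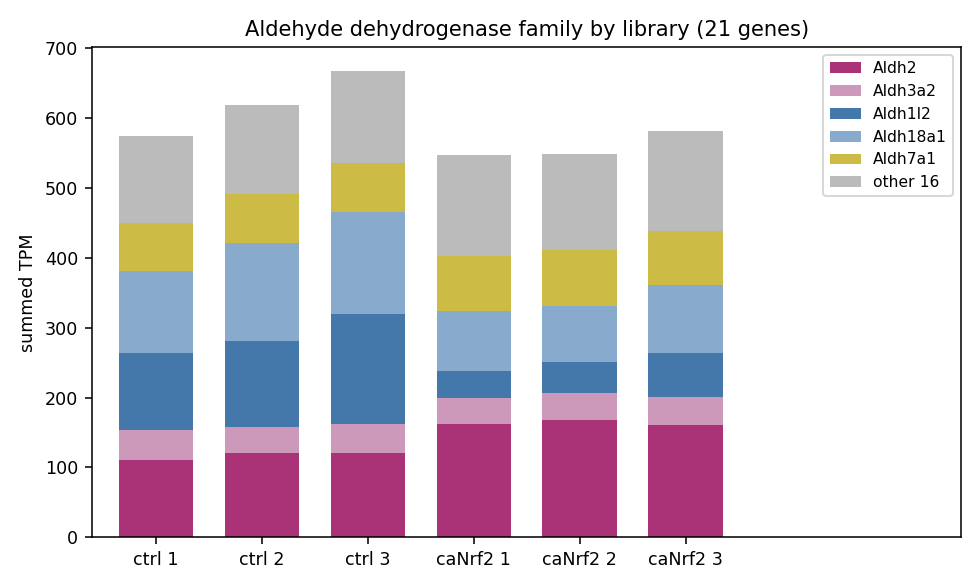
Summed TPM (y axis) of 21 aldehyde dehydrogenase genes in each of the 6 libraries (x axis), split into the 5 most abundant genes and the other 16. The Aldh2 segment is taller in each caNrf2 library, the Aldh1l2 and Aldh18a1 segments are shorter, and the totals run from 547 to 668 TPM.

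Among the relatives and helpers of Aox1, 9 of 12 genes were tested, with a median log2 fold change of 0.03. Of the 9, 3 were called higher and none lower (12.5% and 9.03% over all genes tested). The largest change was that of Mocos, the sulfurase that puts the terminal sulfur on the molybdenum cofactor of aldehyde oxidase and xanthine dehydrogenase. It was at 5.07, 5.07 and 5.45 CPM in ctrl and 32.0, 34.4 and 27.8 CPM in caNrf2. No libraries of the groups overlapped, and the gene rose 6.05-fold (log2 fold change 2.60, SE 0.11, adjusted p = 7.71e-07), beside 5.93-fold for Aox1. Xdh, the xanthine dehydrogenase, rose 1.38-fold (adjusted p = 0.0147) and was no longer called once ctrl replicate 1 (0.0598) or caNrf2 replicate 3 (0.0557) was left out. Mocs1, which starts cofactor synthesis, rose 1.28-fold (adjusted p = 0.0137) and lost its call without caNrf2 replicate 3 (0.066), which left 1 gene of the list called. Over all genes tested, 15.8% were called without that library. Marc2, a molybdenum amidoxime reductase and the most abundant gene of the list, was 1.02-fold of ctrl (adjusted p = 0.878). Its sign turned under upper-quartile scaling (log2 fold change -0.01), without ctrl replicate 3 (-0.04) and without caNrf2 replicate 1 (-0.10).

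Retinoid supply and clearance genes act upstream of and after the retinaldehyde dehydrogenases. Of 25 listed, 19 were tested, with a median log2 fold change of 0.03. Of the 19, 3 were called higher and 4 lower (12.5% and 9.03% over all genes tested). Most of the listed retinol dehydrogenases, among them Rdh5, Rdh11, Rdh12, Rdh13, Rdh14 and Rdh16, were not called (adjusted p 0.171 to 0.828). Adh7, a class of alcohol dehydrogenase with high activity on retinol, was at 88.5, 96.1 and 109 CPM in ctrl and 644, 553 and 567 CPM in caNrf2. The groups lay far apart, and Adh7 rose 6.01-fold (log2 fold change 2.59, SE 0.11, adjusted p = 8.96e-07). Rdh10, the microsomal retinol dehydrogenase needed in the embryo, fell to 0.474-fold (48.6, 38.3 and 51.8 CPM against 23.6, 18.4 and 23.7 CPM, adjusted p = 0.000819). Adh1 fell to 0.397-fold (18.6, 24.2 and 29.8 CPM against 11.2, 6.15 and 11.5 CPM, adjusted p = 0.00544). For both genes every caNrf2 library was below every ctrl library.

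The other 4 calls of this list ended when single libraries were left out. Dhrs9, a retinol dehydrogenase, fell to 0.518-fold (adjusted p = 0.0201) and was not called without ctrl replicate 1 (0.0635), caNrf2 replicate 1 (0.0552) or caNrf2 replicate 3 (0.0656). Cyp26b1, which clears retinoic acid, fell to 0.707-fold (adjusted p = 0.0272) and was not called without ctrl replicate 3 (0.0747), caNrf2 replicate 2 (0.0852) or caNrf2 replicate 3 (0.0574). Dhrs3, which reduces retinaldehyde, rose 1.27-fold (adjusted p = 0.0341) and, with a library left out, was called only without caNrf2 replicate 2 (others 0.0619 to 0.127). Adh5 rose 1.22-fold (adjusted p = 0.0224) and, with a library left out, was called only without caNrf2 replicate 1 or 2 (others 0.0602 to 0.085). Counted over the list, 1 gene was called higher without ctrl replicate 1, 2 or 3 or caNrf2 replicate 3, and 2 were called lower without caNrf2 replicate 3. Of all genes tested, 14.1 to 18.4% were called with a library left out, against 21.5% with none left out. Lpl, the lipoprotein lipase and the most abundant gene of the list, was 0.835-fold of ctrl and not called (adjusted p = 0.243).

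On the receiving side of retinoic acid, 19 of 21 listed genes were tested, with a median log2 fold change of -0.02. Of the 19, 4 were called higher and 3 lower (12.5% and 9.03% over all genes tested). The receptor genes Rara, Rarb, Rarg, Rxra and Rxrb were not called. Rxrg was called at a level near the filter, with 6, 5 and 8 expected counts in ctrl and 29, 29 and 36.2 in caNrf2 (4.27-fold, adjusted p = 0.00361). In ctrl it was at 0.169, 0.112 and 0.264 CPM, against the filter's 0.248 CPM. It thus entered the test through the caNrf2 libraries, where it was high. With a stricter filter (at least 1 CPM in 3 libraries), 3 genes of the list were called higher. Ppard, a nuclear receptor that also binds retinoic acid, was at 65.2, 76.9 and 78.4 CPM in ctrl and 226, 240 and 211 CPM in caNrf2. It rose 3.07-fold without overlap of the groups (log2 fold change 1.62, SE 0.10, adjusted p = 8.34e-06). Tgm2, a transglutaminase and a retinoic acid target, rose 3.59-fold (2.31, 3.50 and 3.11 CPM against 12.4, 10.4 and 9.42 CPM, adjusted p = 0.000169).

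Of the binding proteins that carry retinoic acid in the cell, 2 were lower and Crabp2 was not called (1.35-fold, adjusted p = 0.11, 2.72 to 3.83 CPM in ctrl against 4.10 to 4.90 CPM in caNrf2). Crabp1, the most abundant gene of this list, fell to 0.645-fold, from 270, 291 and 327 CPM in ctrl to 200, 203 and 169 CPM in caNrf2 (adjusted p = 0.00356), with no overlap. Fabp5 fell to 0.796-fold (adjusted p = 0.0221) and was not called without ctrl replicate 2 (0.0687), caNrf2 replicate 2 (0.0696) or caNrf2 replicate 3 (0.0765). Ncoa1, a coactivator of nuclear receptors, fell to 0.639-fold (adjusted p = 0.00181). Rarres1, a gene named for its response to retinoids, rose 1.52-fold (adjusted p = 0.0371), a call that held without ctrl replicate 1 and ended without any other single library (0.0588 to 0.109).

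**Figure D4:**
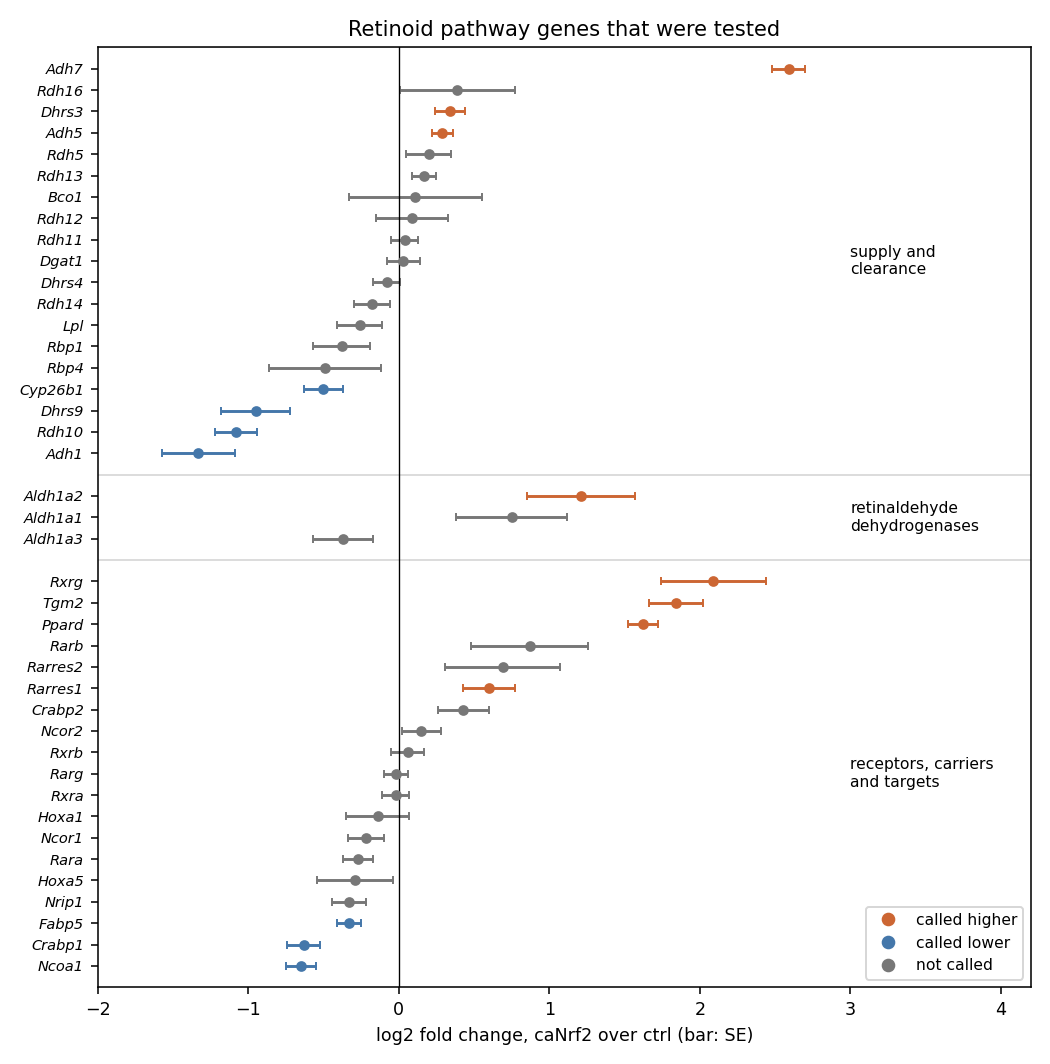
Log2 fold change (x axis, bars are the SE) of caNrf2 over ctrl for the tested genes (y axis) of retinoid supply and clearance, the retinaldehyde dehydrogenases, and the receptors, carriers and targets, coloured by call. Adh7 stands at 2.59 and Rdh10 at -1.08 within the supply genes, and genes called in either direction occur in the first and last panels.

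Genes of epoxide formation and breakdown were listed beside Ephx1. Of 11, 8 were tested, with a median log2 fold change of 0.20. Of the 8, 3 were called higher and 1 lower (12.5% and 9.03% over all genes tested). Neither Ephx2, the soluble epoxide hydrolase (7.75, 6.47 and 6.90 CPM against 8.41, 7.62 and 7.25 CPM, adjusted p = 0.452), nor Lta4h (adjusted p = 0.85) was called. Cyp1a1, a P450 that forms epoxides of polycyclic hydrocarbons, rose 6.75-fold from a low level (0.761, 0.625 and 0.264 CPM against 3.38, 4.76 and 3.27 CPM, adjusted p = 0.000528). Por, the reductase that feeds electrons to P450 enzymes and the most abundant gene of the list, rose 1.43-fold (123, 134 and 121 CPM against 184, 192 and 163 CPM, adjusted p = 0.00434). In neither gene did the groups overlap. Cyp2j9 fell to 0.458-fold (adjusted p = 0.00249). Cyp2j6 rose 1.30-fold (adjusted p = 0.025), a call that held without ctrl replicate 3 and ended without any other single library (0.0532 to 0.0863).

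Several of the 10 genes lie in clusters of relatives. Within 200 kb of them 47 other genes were tested, and 9 (19.1%) were called, near the 21.5% of all genes. Most of these calls lay near Aldh3b1, where 5 of 17 tested genes were called higher and 2 lower. None lay near Aldh1a1, Aldh1a2, Aldh1a3, Aldh1a7 or Aldh2. The share over all 10 genes was 14.8% of 27 genes within 100 kb and 19.1% of 110 within 500 kb. Of the Aox1 relatives, Aox3 lies 6.7 kb away and was not called (0.18 to 0.40 against 0.17 to 0.47 TPM, adjusted p = 0.389), and Aox4 and Aox2 were below the filter. The neighbour of Aox1 that was called, Spats2l at 81.5 kb, rose 1.98-fold (adjusted p = 0.000139). Next to Aldh3b1, Aldh3b2 was not called (1.29-fold, adjusted p = 0.512) and Aldh3b3 was below the filter, while Gstp1, a glutathione transferase, rose 3.04-fold (adjusted p = 3.06e-06). Gstp1 has a close paralog beside it, which held 5 to 40 expected counts a library against 1806 to 7622 for Gstp1.

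For each gene that was called, the tested gene with the smallest Euclidean distance of centred log2 CPM over the 6 libraries was taken as most similar. The 10 genes themselves, genes without a symbol, and symbols that begin with Gm or end with Rik were left out. The nearest gene was Kif21a for Aox1 (distance 0.226), Foxq1 for Aldh3a1 (0.959), Myl4 for Aldh3b1 (0.125), Gna15 for Aldh1a2 (0.238), Tctn2 for Aldh2 (0.064) and D11Wsu47e for Ephx1 (0.068). Kif21a was at 8.45, 8.55 and 8.19 CPM in ctrl and 42.8, 53.7 and 52.0 CPM in caNrf2. Foxq1 held 9, 2 and 1 expected counts in ctrl and 66, 81 and 60 in caNrf2, with ctrl library 1 the highest of its group as for Aldh3a1. Gna15, like Aldh1a2, was a gene of few counts (7 to 11 in ctrl and 15 to 30 in caNrf2). These profiles are dominated by the difference between the groups, and the distance has no test.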

How the data were processed

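Groups and replicate numbers came from the sample titles. Per the submitters' processing notes, RSEM 1.2.21, CASAVA 1.8 and GRCm38 were used. Aligner, annotation release and strandedness are not given in the sources used; without the last, reads of overlapping or antisense genes cannot be told apart. Per the file headers, the authors deposited expected counts per transcript (maximum likelihood and posterior mean), TPM and FPKM (not used), in which reads that fit several transcripts are divided by estimated abundance. Expected counts were summed per gene and rounded, and genes were compared in edgeR 4.0.16 (R 4.3.3), after filterByExpr (minimum count 10, minimum total 15) and TMM scaling, by its quasi-likelihood F test (two-sided, no replicate block) with Benjamini-Hochberg adjustment over 15341 genes and a threshold of 0.05. CPM uses TMM-scaled totals, and intervals of a fold are 95%. P-values set the difference between the groups against the spread between libraries of a group. The test was checked on simulated counts. Alternatives were other scalings and filters, DESeq2 1.42.0, limma-voom (limma 3.58.1), posterior mean counts, a replicate block, each library left out and other neighbour windows.

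The members and gene lists were chosen with earlier results of these data known. Named genes are the 10 genes, Nfe2l2 and Nqo1, of each pathway list the most abundant and up to 4 called genes in each direction, paralogs and the called neighbour of smallest adjusted p within 200 kb, and the nearest profile of each called gene. A neighbour and a marker that these rules name are not reported here. Genes given as not called were named after their values were seen. Symbols came from a reference table, in which Mtarc2 is listed as Marc2.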

Additional observations from a re-analysis of the deposited data

How the results depend on the processing

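Of the 150 refits of the 10 genes, 138 kept direction and side of the threshold. The 9 that lost a call were all of Aldh1a2, at log2 fold changes of 1.02 to 1.36. Aldh1a1 gained a call without ctrl replicate 2, and Aldh3a2 turned sign under upper-quartile factors (-0.01) and without ctrl replicate 2 (-0.01). With a library left out Aldh3a2 ran from -0.01 to 0.04. Marc2 turned sign under upper-quartile factors (-0.01), without ctrl replicate 3 (-0.04) and without caNrf2 replicate 1 (-0.10), and ran from -0.10 to 0.10 with a library left out. Between 5 and 6 of the 10 genes were called higher and 0 lower in every setting. The count of other aldehyde dehydrogenases called higher, 3, was 0 with upper-quartile factors, 1 with no filter, 1 with the replicate block, and 0 to 1 with a library left out. With a library left out, retinoid supply and clearance genes called higher numbered 1 to 3 and called lower 2 to 4, and aldehyde oxidase relatives called higher 1 to 3. Retinoid receptors, carriers and targets called lower were 5 with upper-quartile factors, against 3. The share called over all genes tested, 21.5%, was 14.1 to 18.4% with a library left out. It was 22.8% with upper-quartile factors, 14.6% with no filter and 21% with the replicate block. Except for the left-out libraries, which also mean fewer samples, the cause was not tested.

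The shared replicate numbers were not taken to pair mice. Deviations of same-numbered libraries correlated at 0.214, 0.209 and 0.095, and caNrf2 replicate 3 correlated best with ctrl replicate 2 (0.112). All other pairs of unlike number correlated negatively, from -0.242 to -0.012. With the replicate block 3218 genes were called, against 3302, and Aldh1a2 (adjusted p = 0.0859), Aldh5a1 (0.0559), Aldh7a1 (0.0551) and Gna15 (0.0706) lost their calls. At 5 to 26 counts a library, depth limits Aldh1a2, and at 12 to 66 counts Aldh1a1. Aldh1a2 was called, but its fold is uncertain (95% interval 1.31 to 4.09). For Aldh1a1 a difference could go undetected. The same holds for Aldh1a3 and Aldh1a7, whose 95% intervals of the fold were 0.564 to 1.06 and 0.557 to 1.24.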

Other observations

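The short Ephx1 transcript ENSMUST00000154133 (742 bases, 5 exons) varied more than the rest of the gene. It was at 85.5, 18.8 and 42.9 TPM in ctrl and 57.5, 56.5 and 32.5 TPM in caNrf2, with overlap of the groups. The main transcript, ENSMUST00000036928, was at 247, 237 and 219 TPM in ctrl and 326, 347 and 344 TPM in caNrf2, without overlap. The short transcript took 24.4% of the gene's TPM in ctrl library 1 and 6.87% in ctrl library 2.

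Aldh3a1 reads were divided unevenly between its 2 transcripts of 11 exons in libraries with few counts. ENSMUST00000108716 held 52.9% of the gene's TPM in ctrl library 1, 0% in library 2 and 100% in library 3, from totals of 49, 9 and 11 expected counts. In caNrf2 libraries 1 and 2 it held 76.2% and 68.7%.

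Of the retinoid genes listed, Ttr and Hoxb1 had no count in any library, and Cyp26a1, Cyp26c1, Lrat and Stra6 were at most at 0.15 TPM. Of the 3 Cyp26 genes that clear retinoic acid, Cyp26b1 stood at 59.9 to 82.0 TPM (ctrl) and 42.1 to 49.4 TPM (caNrf2).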
